A study of Mus musculus with 6 samples.

Results

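The Polycomb group genes described here are Ezh1, Ezh2, Eed, Suz12, Jarid2, Ring1, Rnf2, Bmi1, Cbx2 and Cbx7. They were chosen by name as core subunits and partners of the Polycomb repressive complexes, and every non-control probe whose gene name in the array files was one of these 10 was taken, which gave 17 of 41174 probes and 10 of the 27745 gene names on the array. RNA of mouse (Mus musculus) oocyte cytoplasm and of blastocysts was measured on 6 single-colour (Cy3) Agilent arrays, with 1 sample per array. All samples carried the strain label B6C3 F1, and the age label read climacteric, a word for the phase of reproductive decline, or young, with no age in numbers. There were 2 arrays of climacteric blastocysts, 2 of young blastocysts, 1 of climacteric ooplasts and 1 of young ooplasts. An ooplast is an oocyte from which the chromosomes have been taken out, so its RNA is maternal. A blastocyst is the embryo before implantation, with an inner cell mass inside a shell of trophectoderm. How the blastocysts were made is not stated in the labels used here, nor how many oocytes or embryos went into a sample, or from which animals they came. The design text calls the replicates biological, and without named animals the p-values measure only the spread between these samples.

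Polycomb proteins keep developmental genes silent through 2 kinds of complex. Polycomb repressive complex 2 (PRC2) methylates lysine 27 of histone H3 through Ezh2 or its paralog Ezh1, with Eed, which binds the finished mark and stimulates the enzyme, and Suz12, the scaffold; Jarid2 is an accessory subunit that helps to bring the complex to chromatin. Polycomb repressive complex 1 (PRC1) ubiquitylates histone H2A through the E3 ligases Ring1 and Rnf2 (Ring1b), each paired with a PCGF protein such as Bmi1, and in its canonical form it carries a chromobox protein such as Cbx2 or Cbx7 that binds methylated H3. In mouse oocytes PRC2 lays down H3K27 methylation that marks some genes for imprinted expression in the embryo.

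A level here is log2 of the deposited processed signal minus the array's own 75th percentile, so 0 marks the 75th percentile, and levels of different probes are not comparable with each other. That percentile was 721 to 1111 signal units on the blastocyst arrays and 235 to 238 on the ooplast arrays, and the share of non-control spots well above background was 49.9% to 57.3% on blastocyst arrays and 42.2% to 42.4% on ooplast arrays. Slide 1 carried the ooplast arrays together with the replicate 1 blastocyst arrays, and slide 2 the replicate 2 blastocyst arrays. Of 7 trophectoderm markers, 7 were well above background on every blastocyst array and 4 and 5 on the climacteric and young ooplast arrays. All 8 oocyte markers were above background on both ooplast arrays, against 4 or 5 on the blastocyst arrays. Of 12 cumulus and granulosa cell markers 7 or 8 were above background on every array, and their summed level (log2) was 5.48 to 5.66 in blastocysts and 6.72 to 6.88 in ooplasts. Of 12 macrophage markers, 5 to 8 were above background, and their summed level stood apart on climacteric blastocysts replicate 1 (5.27) and climacteric ooplasts (5.23) from the other arrays (1.71 to 2.05). The part of these markers in the results below was not tested.

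Of the 17 Polycomb probes, 11 were well above background on all 6 arrays, 4 on some of them and 2 on none, and 8 of the 10 genes had a probe above background on every array. The exceptions were Ezh1, above background nowhere, and Cbx7, above background in blastocysts alone. None of these spots was saturated.

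**Figure D1:**
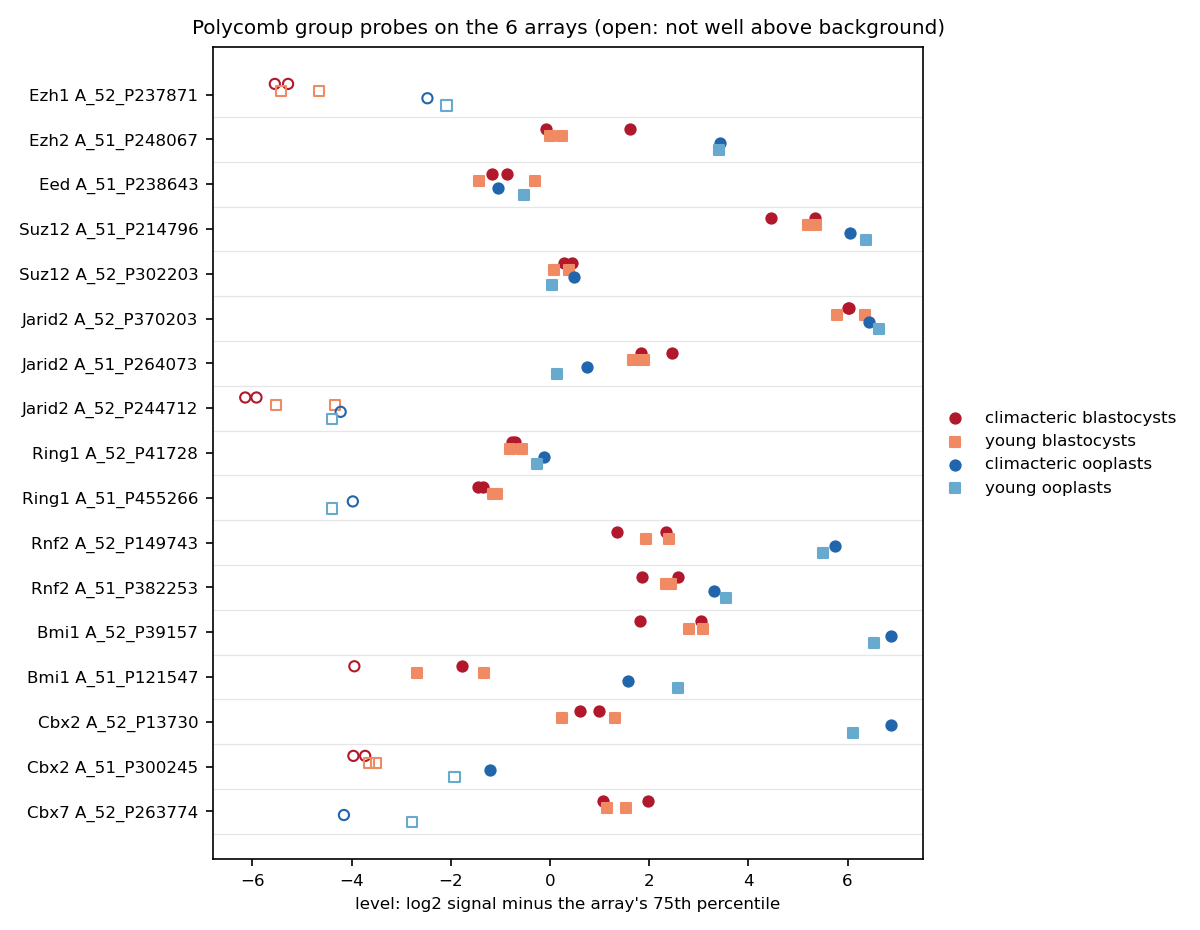
Levels (log2 units relative to each array's 75th percentile, horizontal axis) of the 17 Polycomb probes (vertical axis) on the 6 arrays. Red symbols are blastocysts and blue symbols ooplasts, circles are climacteric and squares young samples, and an open symbol marks a spot not well above background. Blastocyst and ooplast symbols lie far apart for Cbx2, Cbx7, Bmi1 and the upper Rnf2 probe, whereas those of Eed and the lower Suz12 probe overlap.

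For stage, 4 blastocyst arrays were compared with 2 ooplast arrays in a fit that also held an age term. In levels, which are relative to each array, Cbx2, Bmi1, Rnf2 and Ezh2 were lower and Cbx7 was higher in blastocysts than in ooplasts. Before scaling, the tested probes of Cbx2, Bmi1 and Cbx7 and the upstream Rnf2 probe kept these directions on every array. The unscaled signal of the downstream Rnf2 probe was higher in blastocysts, so its direction rests on the scaling. For Ezh2, a climacteric blastocyst array exceeded both ooplast arrays before scaling, and the other blastocyst arrays lay below them. Eed did not pass the test. The test (limma, two-sided, Benjamini-Hochberg adjusted over all 20968 probes) covered 14 Polycomb probes of 9 genes, and 10 of them passed at an adjusted p under 0.05, 3 higher and 7 lower in blastocysts. That is 71.4% of those tested, near the 73.8% of all probes that passed (35.6% higher and 38.2% lower), so the share that changed is no result about these genes. Their median difference was -0.82, against -0.22 for all probes tested. Among probes above background on every array, as 11 of these 14 were, the median was -0.60. Each difference below is superimposed on such a shift. Stages did not overlap for 12 of the 14, against 79.1% of all probes. In bulk samples, fewer cells of a type and less RNA per cell cannot be told apart.

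Of the PRC2 enzymes, Ezh2 was lower in blastocysts and Ezh1 was not measurable. The Ezh2 level was 1.61 and -0.08 in climacteric blastocysts and 0.24 and -0.00023 in young blastocysts, against 3.43 in climacteric ooplasts and 3.41 in young ooplasts. Every blastocyst array lay below both ooplast arrays in level, and climacteric blastocysts replicate 1 was the highest of the 4. Before scaling, the signal on that array (3242 units) was above that of climacteric (2570) and young ooplasts (2498). The other blastocyst arrays had 807 to 1111 units. The mean level was 0.44 ± 0.79 in blastocysts (SD, n = 4) and 3.42 ± 0.019 in ooplasts (SD, n = 2). The log2 difference was -2.98 ± 0.49 (SE), or 7.88-fold lower (adjusted p = 0.00178, limma). Without climacteric blastocysts replicate 1, the array with the high macrophage marker sum, the difference was -3.38 (adjusted p = 0.000405, limma). The coordinates of the Ezh2 probe A_51_P248067 (chr6:47461634-47462529, mm8, minus strand) span 896 bases of the genome, whereas those of most Polycomb probes span 60. The Ezh1 probe A_52_P237871 (chr11:101007913-101007972, mm8, minus strand) gave 27.4 and 18.2 signal units in climacteric blastocysts, 16.8 and 44.1 in young blastocysts, 42.9 in climacteric ooplasts and 55.4 in young ooplasts, none well above background, and it was not tested. The window around the start of Ezh2 (RefSeq, GRCm38.p6, chr6:47594981-47595280, minus strand; 250 bases before the start and 50 after) is shown because Ezh2 and Suz12 are the members with an E2F element there, an 8-base word bound by E2F factors of the cell cycle; capitals mark that element and 3 CCAAT boxes (CCAAT or its complement ATTGG).
Ezh2: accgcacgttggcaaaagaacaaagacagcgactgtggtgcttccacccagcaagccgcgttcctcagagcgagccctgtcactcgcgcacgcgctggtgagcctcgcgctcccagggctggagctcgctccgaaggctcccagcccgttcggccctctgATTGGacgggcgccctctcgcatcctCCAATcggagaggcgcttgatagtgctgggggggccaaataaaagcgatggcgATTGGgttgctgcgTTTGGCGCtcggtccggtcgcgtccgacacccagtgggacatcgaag

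Of the other core subunits, Eed did not pass the test and Suz12 passed on 1 of its 2 probes. Eed (A_51_P238643) had levels of -0.86 and -1.16 in climacteric blastocysts and -1.44 and -0.31 in young blastocysts, against -1.04 in climacteric ooplasts and -0.52 in young ooplasts. The stages overlapped, and the difference of -0.16 ± 0.38 (SE) had a 95% interval of -1.08 to 0.76 (adjusted p = 0.711, limma). The coordinates of its probe (chr7:89840003-89842912, mm8, minus strand) span 2910 bases of the genome.

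Suz12 was measured by 2 probes that are 20273 bases apart on the plus strand of chromosome 11. The downstream probe A_51_P214796 (chr11:79849944-79850003, mm8) had levels of 4.46 and 5.35 in climacteric blastocysts and 5.20 and 5.35 in young blastocysts, against 6.04 in climacteric ooplasts and 6.37 in young ooplasts. All blastocyst arrays were below both ooplast arrays, by -1.12 ± 0.33 (SE) on the log2 scale, or 2.17-fold (adjusted p = 0.0196, limma). This call was lost without the climacteric ooplast array (adjusted p = 0.104), without the young ooplast array (adjusted p = 0.0906), with quantile normalization (adjusted p = 0.0572) and with the authors' deposited values (adjusted p = 0.0749), all by limma. Before scaling, its signal was higher in blastocysts, at 23442 to 45478 units, than in ooplasts, at 15642 to 19521 units, so the direction rests on the scaling to each array's 75th percentile. The upstream probe A_52_P302203 (chr11:79829671-79829730) had levels of 0.45 and 0.29 in climacteric blastocysts and 0.07 and 0.38 in young blastocysts, against 0.49 in climacteric ooplasts and 0.04 in young ooplasts. The stages overlapped there, with a difference of 0.03 (95% interval -0.61 to 0.66; adjusted p = 0.924, limma) whose sign turned under quantile normalization (-0.030).

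Jarid2, the PRC2 partner, was higher in blastocysts on 1 of 2 measurable probes. Its probe A_51_P264073 (chr13:44931008-44931067, mm8, plus strand) had levels of 2.46 and 1.83 in climacteric blastocysts and 1.67 and 1.89 in young blastocysts, against 0.74 in climacteric ooplasts and 0.14 in young ooplasts. All 4 blastocyst arrays were above both ooplast arrays, by 1.52 ± 0.29 (SE), or 2.88-fold (adjusted p = 0.00351, limma). The probe A_52_P370203, 842 bases further downstream (chr13:44931850-44931909), had levels of 6.02 and 6.03 in climacteric blastocysts and 6.35 and 5.80 in young blastocysts, against 6.44 in climacteric ooplasts and 6.62 in young ooplasts. There the blastocyst arrays lay just below the ooplast arrays, with a difference of -0.48 that did not pass (95% interval -1.15 to 0.19; adjusted p = 0.158, limma). It was -0.06 with quantile normalization and -0.02 with the authors' deposited values. The unscaled signal of this probe was higher in blastocysts (55554 to 68906 units) than in ooplasts (20592 to 23231 units), so the order of the stages rests on the scaling. The remaining Jarid2 probe, A_52_P244712 (chr13:44895933-44895992), matched to a separate transcript record, was above background on no array.

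Of the PRC1 ligases, Rnf2 was lower in blastocysts on both of its probes. The probe A_52_P149743 (chr1:153233567-153233626, mm8, minus strand) had levels of 1.35 and 2.34 in climacteric blastocysts and 2.39 and 1.94 in young blastocysts, against 5.75 in climacteric ooplasts and 5.50 in young ooplasts. Its means were 2.01 ± 0.48 in blastocysts (SD, n = 4) and 5.63 ± 0.18 in ooplasts (SD, n = 2), and the difference of -3.62 ± 0.37 (SE) made it 12.3-fold lower in blastocysts (adjusted p = 0.000202, limma). The probe A_51_P382253, 1492 bases further downstream (chr1:153232075-153232134), had levels of 1.85 and 2.57 in climacteric blastocysts and 2.35 and 2.44 in young blastocysts, against 3.31 in climacteric ooplasts and 3.55 in young ooplasts. All blastocyst arrays were again below both ooplast arrays, but by -1.13 ± 0.30 (SE) or 2.18-fold (adjusted p = 0.0136, limma). That call was lost without the climacteric ooplast array (adjusted p = 0.0712, limma) and without the young ooplast array (adjusted p = 0.0782, limma). Before scaling, the signal of this second probe was higher in blastocysts (3669 to 6044 units) than in ooplasts (2358 to 2761 units), while that of the first was lower (2716 to 4308 against 10680 to 12820 units).

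Ring1, the other ligase, passed the test on 1 of its 2 probes, higher in blastocysts. Its upstream probe A_52_P41728 (chr17:33632344-33632403, mm8, minus strand) had levels of -0.70 and -0.76 in climacteric blastocysts and -0.57 and -0.81 in young blastocysts, against -0.12 in climacteric ooplasts and -0.26 in young ooplasts. The blastocyst arrays were all below the ooplast arrays, but the difference of -0.52 (95% interval -1.13 to 0.09) did not pass (adjusted p = 0.103, limma). The unscaled signal of this probe was higher in blastocysts (486 to 654 units) than in ooplasts (196 to 219 units), so that order rests on the scaling. The probe A_51_P455266, 671 bases downstream (chr17:33631673-33631732), had levels of -1.45 and -1.35 in climacteric blastocysts and -1.07 and -1.15 in young blastocysts, and was not well above background in climacteric ooplasts (-3.97) or young ooplasts (-4.39). For a probe dim throughout a stage the fold is given as a nominal lower bound. On each array it is set against the higher of the dim probe's own level and the lowest level well above background. That lowest level is of the whole array, and single spots above it can still be dim. In young ooplasts it was -2.25, and a Cbx2 probe at -1.92 was not well above background. Each fold given as at least a value holds against this floor and not against a probe's own detection limit. By that bound Ring1 was at least 1.85-fold higher in blastocysts on this probe. The means were -1.25 ± 0.18 in blastocysts (SD, n = 4) and -4.18 ± 0.30 in ooplasts (SD, n = 2). The adjusted p of 0.000146 (limma) belongs to the fitted difference of 2.93, which uses the dim ooplast values, and not to the bound. With normexp background correction that fitted difference was 0.59.

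Bmi1, the PCGF subunit that partners the ligases, was lower in blastocysts on both probes. The probe A_52_P39157 (chr2:18604114-18604173, mm8, plus strand) had levels of 1.82 and 3.05 in climacteric blastocysts and 2.81 and 3.09 in young blastocysts, against 6.87 in climacteric ooplasts and 6.53 in young ooplasts. No blastocyst array came near an ooplast array, with means of 2.69 ± 0.59 in blastocysts (SD, n = 4) and 6.70 ± 0.24 in ooplasts (SD, n = 2), a difference of -4.00 ± 0.43 (SE) or 16-fold (adjusted p = 0.000228, limma). The upstream probe A_51_P121547 (chr2:18601433-18601492) had levels of -3.94 and -1.78 in climacteric blastocysts and -1.32 and -2.68 in young blastocysts, against 1.57 in climacteric ooplasts and 2.58 in young ooplasts. It was not well above background on climacteric blastocysts replicate 1, the lowest of the 6, and the difference was -4.50 ± 0.67 (SE; adjusted p = 0.00105, limma). The Bmi1 promoter window (RefSeq, GRCm38.p6, chr2:18676768-18677067, plus strand) is shown beside those of Ezh2 and Cbx7 as that of a gene lower in blastocysts with no E2F element and no CCAAT box; capitals mark 6 GC boxes (GGGCGG or its complement CCGCCC), some of which overlap.
Bmi1: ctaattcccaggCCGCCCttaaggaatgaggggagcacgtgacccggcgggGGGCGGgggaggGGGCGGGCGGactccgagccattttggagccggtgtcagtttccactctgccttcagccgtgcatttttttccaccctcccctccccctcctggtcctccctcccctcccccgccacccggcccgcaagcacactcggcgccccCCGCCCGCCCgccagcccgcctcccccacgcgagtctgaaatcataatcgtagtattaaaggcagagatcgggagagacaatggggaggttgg

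The chromobox readers changed in opposite directions, Cbx2 lower and Cbx7 higher in blastocysts. Cbx2 (A_52_P13730, chr11:118847139-118847198, mm8, plus strand) had levels of 0.99 and 0.61 in climacteric blastocysts and 1.32 and 0.24 in young blastocysts, against 6.87 in climacteric ooplasts and 6.11 in young ooplasts. The stages were far apart, with means of 0.79 ± 0.47 in blastocysts (SD, n = 4) and 6.49 ± 0.54 in ooplasts (SD, n = 2). The difference of -5.70 ± 0.40 (SE), or 52.0-fold lower in blastocysts, had the smallest adjusted p of the group (3.96e-05, limma). Its second probe, A_51_P300245 (chr11:118845104-118845163), exceeded background in climacteric ooplasts alone and was not tested; its levels were -3.73 and -3.96 in climacteric blastocysts and -3.51 and -3.64 in young blastocysts, against -1.21 in climacteric ooplasts and -1.92 in young ooplasts.

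Cbx7 was above background in blastocysts and not in ooplasts. Its probe A_52_P263774 (chr15:79743093-79743152, mm8, minus strand) had levels of 1.97 and 1.07 in climacteric blastocysts and 1.54 and 1.16 in young blastocysts, against -4.15 in climacteric ooplasts and -2.77 in young ooplasts. In signal units that was 1791 to 4179 in blastocysts, and 13.4 in climacteric and 34.4 in young ooplasts. Cbx7 was at least 11.9-fold higher in blastocysts, with means of 1.43 ± 0.41 in blastocysts (SD, n = 4) and -3.46 ± 0.97 in ooplasts (SD, n = 2). The adjusted p of 0.000131 (limma) belongs to the fitted difference, which uses the dim ooplast values, and not to this bound. The fitted difference, which is no bound, was 4.90, and it was 4.12 without the climacteric and 5.68 without the young ooplast array. Its promoter window (RefSeq, GRCm38.p6, chr15:79932597-79932896, minus strand) is shown as that of the member higher in blastocysts on its probe; capitals mark a CCAAT box and a GC box.
Cbx7: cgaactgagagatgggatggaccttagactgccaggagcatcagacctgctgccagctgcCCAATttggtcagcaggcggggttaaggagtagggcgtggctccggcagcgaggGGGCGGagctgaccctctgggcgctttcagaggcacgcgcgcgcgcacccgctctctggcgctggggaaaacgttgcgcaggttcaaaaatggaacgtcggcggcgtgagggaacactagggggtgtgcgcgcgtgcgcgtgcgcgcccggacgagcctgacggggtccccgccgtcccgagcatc

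**Figure D2:**
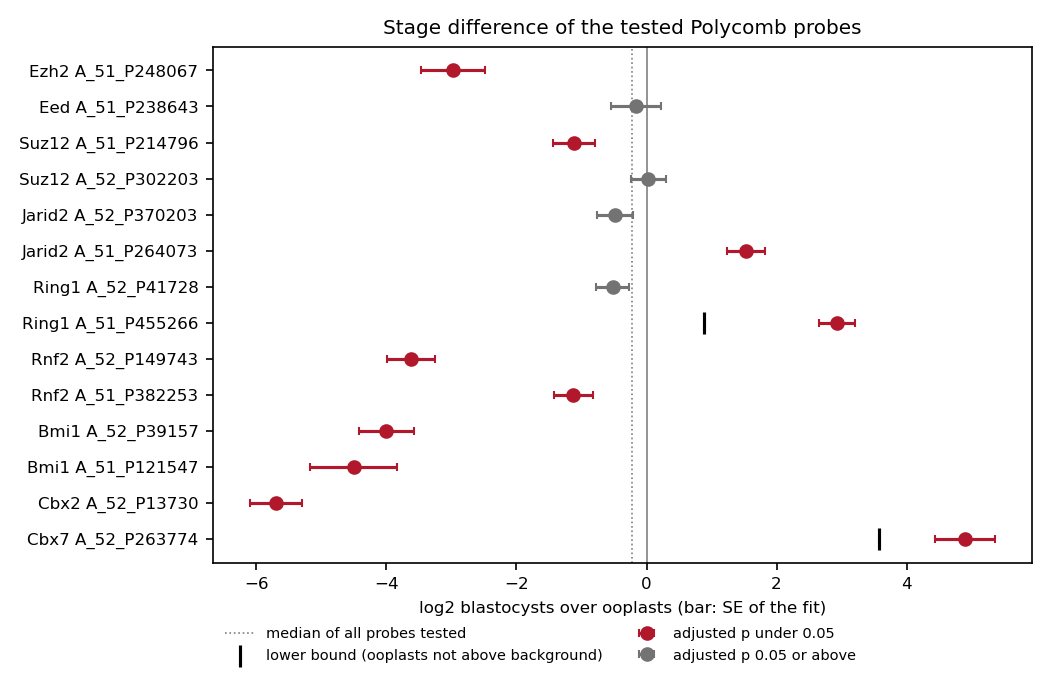
Stage difference (log2 blastocysts over ooplasts, horizontal axis) of the 14 tested Polycomb probes (vertical axis), with the SE of the limma fit over 4 blastocyst and 2 ooplast arrays as bars. Red points passed an adjusted p of 0.05 and grey points did not, the dotted line is the median of all probes tested (-0.22), and black ticks are the lower bounds of the probes not above background in ooplasts. Cbx2 lies furthest to the left at -5.70, and the lower bound of Cbx7 lies to the right of that of Ring1.

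Within slide 1, which holds 1 array of each group, 10 of the 14 probes passed again, and Ezh2 (-2.50), Bmi1 (-4.38) and Cbx7 (5.22) kept their directions there. The array scaling moved the median of all probes between -0.41 and -0.09, and over all alternatives the fitted difference of Cbx7 ranged from 2.82 to 5.68 and that of the downstream Ring1 probe from 0.59 to 3.78, each on the same side of the threshold throughout.

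For 5 of these genes 2 probes were tested, and the stage difference itself was compared between them in a test added after the values had been seen. It covered 5372 pairs of a gene's brightest and another probe, of which 58.3% differed at an adjusted p under 0.05. The pairs of Rnf2 (-2.49, adjusted p = 0.00207) and Jarid2 (-2.01, adjusted p = 0.00701) differed, each given as the brightest probe's log2 stage difference minus the other's (limma). Those of Suz12 (-1.15, adjusted p = 0.0522) and Bmi1 (0.50, adjusted p = 0.513) did not pass (limma). No difference is given for the Ring1 pair, since its downstream probe was dim in both ooplast samples. The brightest probe is the downstream one for Suz12, Jarid2 and Bmi1 and the upstream one for Ring1 and Rnf2. Exon and UTR positions of the probes were not analysed here.

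Age in blastocysts was compared over 2 climacteric and 2 young arrays. No Polycomb probe passed: 0 of 14 tested at an adjusted p under 0.05 and 0 of 14 at an unadjusted p under 0.05, with a smallest unadjusted p of 0.329 (limma). Over all 21631 probes 0% passed after adjustment and 5.6% at an unadjusted p under 0.05. The 14 differences ran from -0.86 to 0.65 (log2 climacteric over young), with a median of -0.10 against 0.01 for all probes. The ages overlapped in all but 1 of the 14 (30.7% of all probes did not overlap): the downstream Ring1 probe had -1.45 and -1.35 in climacteric blastocysts and -1.07 and -1.15 in young blastocysts, a difference of -0.29 (95% interval -1.02 to 0.44).

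These data bound the age differences loosely. Ezh2 differed by 0.65 (95% interval -0.88 to 2.17), where climacteric replicate 1 alone stood high. The Cbx2 difference of 0.03 had an interval of -1.13 to 1.18, and that of Cbx7, 0.18, one of -0.88 to 1.23. Bmi1 was lower in climacteric blastocysts on both probes, with log2 differences of -0.51 (95% interval -1.74 to 0.72) and -0.86 (95% interval -3.0 to 1.27), within the spread between replicates in each case. Climacteric replicate 1 alone stood low on both probes (1.82 and -3.94, the latter not well above background). Climacteric replicate 2 (3.05 and -1.78) lay between the young arrays on each probe. In simulated data of the same design 20% of probes changed 4-fold and 94% of those changed 8-fold were recovered.

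Climacteric and young ooplasts had 1 array each, so their difference has no replicate check. Of 12 Polycomb probes above background on both arrays, 1 (8.33%) was at least 2-fold apart, against 17.3% of 15508 probes in all (7.39% higher and 9.92% lower in climacteric ooplasts). It was the upstream Bmi1 probe, with 1.57 in climacteric and 2.58 in young ooplasts, a difference of -1.0, and with the authors' values, normexp or scaling on commonly detected probes it fell short of 2-fold. The other Bmi1 probe stood at 6.87 in climacteric and 6.53 in young ooplasts, or 0.34 higher. Cbx2 was 0.77 higher in climacteric ooplasts and Ezh2 0.03 higher, and all 12 lay between -1.0 and 0.77 around a median of 0.09 (0.14 for all probes).

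Whether the stage difference itself depended on age was tested as an interaction, whose spread comes from the blastocyst pairs alone. None of the 14 Polycomb probes passed (0 at an unadjusted p under 0.05, smallest unadjusted p 0.0783), against 0.672% of 20968 probes after adjustment and 7.83% at an unadjusted p under 0.05. The smallest p belonged to Cbx7, whose log2 stage difference was 1.55 ± 0.72 (SE) larger in climacteric than in young samples (adjusted p = 0.724, limma), but its ooplast levels were below background on both arrays. The simulation recovered 0% of 4-fold and 4% of 8-fold interactions, so changes of that size were not detectable here.

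**Figure D3:**
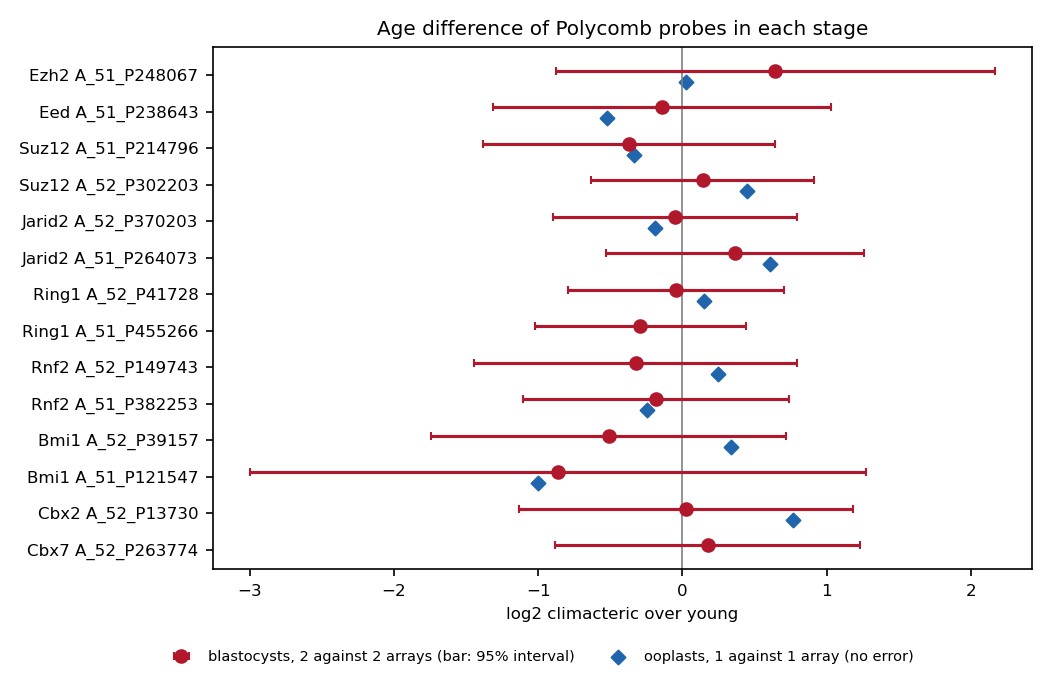
Age difference (log2 climacteric over young, horizontal axis) of the 14 Polycomb probes tested in blastocysts (vertical axis). Red points are blastocysts, 2 arrays against 2, with 95% intervals of the limma fit, and blue diamonds are ooplasts, 1 array against 1 with no error, drawn where both ooplast arrays were above background. Every interval includes 0.

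A further 7 lists of Polycomb pathway genes were counted by the brightest probe of each gene, taken as its highest 6-array mean. By that rule 74% of all genes passed the stage test, and another probe of a gene could give another call. Of 7 measured PRC2 partners, 2 were higher in blastocysts, 2 were lower and 3 did not pass (median log2 difference 0.49). Epop (levels 5.52 to 6.46 in blastocysts and 0.02 to 0.06 in ooplasts), which links PRC2 to elongin, was higher by 6.00 ± 0.34 on the log2 scale (SE; adjusted p = 2.17e-05, limma). Mtf2, a Polycomb-like subunit that recruits PRC2 to CpG islands, was higher by 5.23 on 1 probe and at least 2.42-fold higher on another that was dim in ooplasts, while the differences of 0.96 and 0.59 on its remaining probes did not pass. Its paralog Phf1 was lower, with a log2 difference of -8.57 (levels -3.24 to -1.10 in blastocysts and 5.98 to 6.05 in ooplasts), and so was the histone chaperone Rbbp7 (-2.80).

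Among 18 tested partners of the PRC1 ligases, 7 were higher, 7 lower and 4 did not pass (median -0.20). E2f6, a DNA-binding subunit of the PRC1.6 variant, was higher by 5.35, by 4.31 without the climacteric and by 6.40 without the young ooplast array. Bcor, a subunit of the PRC1.1 variant, was higher by 5.19 on 1 probe but differed by 0.17 (above background on 1 of 2 ooplast arrays) and -0.16 on its other probes (adjusted p = 0.596 and 0.637, limma). Pcgf1, the PCGF subunit of that same variant, was lower, with a log2 difference of -6.53 (levels 0.90 to 1.25 in blastocysts and 7.65 to 7.69 in ooplasts). Scml2 was lower, with a log2 difference of -6.18 on the probe above background in blastocysts, and at least 23.6-fold and 153-fold lower on its other probes, which were dim on every blastocyst array.

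The paralogs of Bmi1, Cbx2 and Cbx7 in that list were looked at after their values had been seen. Of the other PCGF genes that passed on their brightest probe, Pcgf5 was higher in blastocysts by 3.23. Its levels were 2.76 to 3.81 in blastocysts and 0.05 to 0.48 in ooplasts. The other Pcgf5 probe was not above background in ooplasts and too dim there for a fold. Pcgf6, like Bmi1 and Pcgf1, was lower on both of its probes, with log2 differences of -3.11 and -3.21, the second above background on 1 of 4 blastocyst arrays. Of the other chromobox genes, Cbx8, above background on 1 of 2 ooplast arrays, was higher by 2.05 (adjusted p = 0.00613, limma), but without the climacteric ooplast array it did not pass (1.27, adjusted p = 0.0709, limma). Cbx6 was at least 6.15-fold higher on 1 probe and differed by 0.14 on another (adjusted p = 0.694, limma). Cbx2 thus lay on the other side of 0 from Cbx7 and Cbx8 in the same samples. Phc2, a polyhomeotic subunit of canonical PRC1, was lower, with a log2 difference of -4.86 (-4.22 without the climacteric and -5.51 without the young ooplast array). Rybp, which takes the place of a chromobox protein in variant PRC1, was higher by 3.30 on 1 probe, but its other probe differed by -0.61 (adjusted p = 0.103, limma), and its paralog Yaf2 was lower (-2.91).

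Of 9 genes of the DNA-binding Pho-RC complex and of the PR-DUB complex, which removes ubiquitin from H2A, 1 was higher in blastocysts, 5 were lower and 3 did not pass (median -1.10). That count is by the brightest probe. Yy1, counted as not passing, was at least 11.8-fold and 6.39-fold higher on its other probes, which were dim in ooplasts. Asxl2, counted likewise, was at least 6.95-fold higher on 1 dim probe and did not pass on another (0.29). Foxk2, counted as lower, was higher by 2.71 on 1 other probe and lower on another (-1.97). Other probes of Foxk1 were lower (-1.15) or did not pass (-0.82). Sfmbt1 was at least 292-fold lower, as none of its 3 probes was above background on a blastocyst array while this one had 4.66 in climacteric and 4.35 in young ooplasts. Mbtd1 was lower, with log2 differences of -4.78 and -2.61 on its 2 probes, the second above background on 2 of 4 blastocyst arrays. Sfmbt2 was at least 18.8-fold higher in blastocysts on 1 probe (adjusted p of the fitted difference 3.3e-05, limma). Another of its probes was lower (-0.98, adjusted p = 0.0232, limma). Both tested H3K27 demethylases were lower in blastocysts: the log2 difference was -3.89 for Kdm6b, above background on 3 of 4 blastocyst arrays (-3.29 without climacteric blastocysts replicate 1), and -2.89 for Kdm6a. Trithorax and COMPASS genes, which include H3K4 methyltransferases and their partners, oppose Polycomb silencing. Of 13 tested, 4 were higher and 9 lower by the brightest probe (median -1.41). Hcfc1, counted as lower, was at least 1.25-fold higher on another probe that was dim in ooplasts. Rbbp5, counted as higher, was lower on its other probe (-1.14, adjusted p = 0.0419, limma). Kmt2a was higher by 2.89, by 2.34 without the climacteric ooplast array, and Setd1a (-3.45) and Kmt2b (-3.34) were lower. Ash1l was at least 1.04-fold higher, but it did not pass under normexp background correction and its fitted difference was then -0.15.

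Many genes that Polycomb complexes are known to silence were too dim to test. Of 27 Hox and Cdkn2 genes, 11 had their brightest probe above background on no array, and of the 10 tested 3 were higher, 3 lower and 4 did not pass (median 0.04, or -0.28 with the 2 dim in ooplasts at their bound, or at 0 where there is none). Hoxb7 was at least 2.03-fold higher in blastocysts, a call lost without the young ooplast array (adjusted p = 0.0711, limma) and under normexp correction (adjusted p = 0.203, limma). Hoxc6 passed too, but its ooplast probe was too dim for a fold. Hoxa7 was lower, with a log2 difference of -6.30 (levels -0.12 to 2.04 in blastocysts and 6.72 to 7.44 in ooplasts). Hoxc10 was lower (-5.86), but its levels ran from -3.77 to 1.53 in blastocysts and stood at 0.40 in climacteric and 7.46 in young ooplasts, and without the young ooplast array it did not pass (-3.25, adjusted p = 0.211, limma). On their brightest probes, the 6 listed genes known to be imprinted in mouse embryos through maternal H3K27 methylation passed as higher in blastocysts. Of all probes tested, 35.6% passed as higher. Only Gab1 and Jade1 were above background in an ooplast sample on those probes. Jade1 was higher in blastocysts by 4.15 and Gab1, above background on 1 of 2 ooplast arrays, by 2.39. On the probes counted, Sfmbt2, Slc38a4, Smoc1 and Xist entered the test through blastocysts alone. A lower call was therefore hardly open to these 4, and their part in the count of 6 is no result. Smoc1 was too dim for a fold (its fitted sign turned under normexp correction, -0.36). The median of the list was 4.59 as fitted and 3.81 with these 4 at their bound, or at 0 for Smoc1. Slc38a4 was at least 56.9-fold higher on the probe counted and at least 1.85-fold higher on its other probe. Xist was at least 11.1-fold higher on the probe counted, with 1 of its 4 probes above background on an ooplast array. Another Sfmbt2 probe, above background on every array, was lower in blastocysts (-0.98, adjusted p = 0.0232, limma). In blastocysts no gene of any of the lists passed for age.

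**Figure D4:**
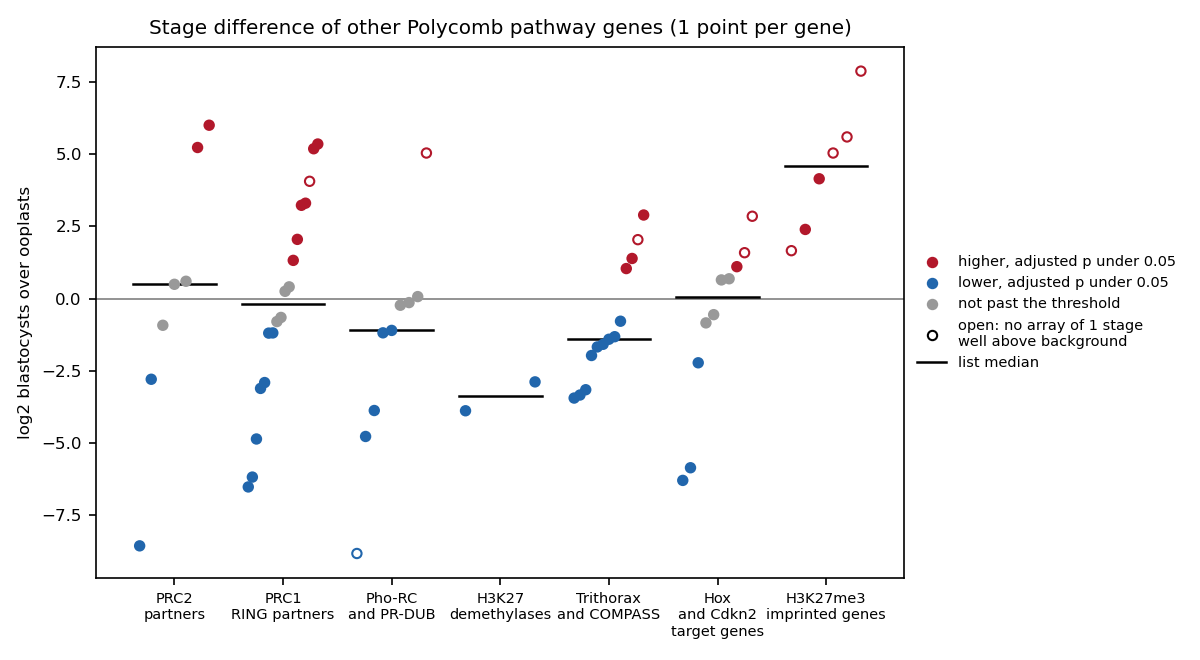
Stage difference (log2 blastocysts over ooplasts, vertical axis) of the tested genes of 7 further Polycomb pathway lists (horizontal axis), 1 point per gene by the probe with the highest mean. Red points are higher and blue points lower at an adjusted p under 0.05, grey points did not pass, open points had no array of 1 stage above background, and black lines are list medians. The 6 imprinted genes all lie above 0. Of these, 4 are open points that entered the test through blastocysts alone and whose fitted value is no bound. The Trithorax and COMPASS list has 9 points below 0 and 4 above.

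Likeness to other genes was measured as the root mean square (RMS) difference over the 6 arrays after each probe was centred on its own mean, among about 11740 probes of named genes above background on every array. Nearest to Ezh2 was Pfdn1 (RMS 0.14), to Suz12 Aak1 (0.08) and to Jarid2 Rbm17 (0.06). Nearest to Ring1 was Glis2 (0.04), to Rnf2 Zfp212 (0.13), to Bmi1 Tbc1d15 (0.14) and to Cbx2 Garnl3 (0.17). With 6 arrays such nearness is easily met: 28.2% of the candidates were nearer to Rnf2 than its own second probe was (RMS 1.2), and 59.9% in the case of Jarid2 (RMS 1.03).

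Promoter windows were matched for 9 of the 10 genes, 10 windows in all, from RefSeq (GRCm38.p6). They were rich in CpG, with 17 to 41 CpG dinucleotides per 300 bases against a median of 7 over 32851 mouse windows. The E2F element was searched on both strands as TTTCCCGC, TTTGGCGC, TTTCGCGC and TTTGCCGC and was found in 2 of the 9 genes, Ezh2 and Suz12, against 2.26% of all windows. The GC box was found in 6 of 9 (35.7% of all windows), the CCAAT box in 5 of 9 (37.4%) and the oocyte factor NOBOX's element, TAATTG or TAATTA, in 0 of 9 (12.4%). The counts are of genes and the shares of windows, and the E2F words and the GC box themselves contain a CpG. No share was taken among windows as rich in CpG, so no enrichment is read from these counts. A match is a string of letters in a window and no evidence of binding.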

How the data were processed

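RNA was amplified and labelled with Cy3, per the labels' protocols, and hybridised to 6 single-colour Agilent arrays. Agilent Feature Extraction 9.5 gave the spot intensity, per the submitters' processing notes. The processed signal is, per the file headers, background-subtracted and spatially detrended, with a surrogate value near background, and probes are placed on mm8. The authors also deposited log2 values, which equal a quantile normalization of the linear signal (rank correlation 1 with each array's own signal; column median 6.25). Their scale and direction are therefore known, and they served as an alternative.

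Spots of a probe were averaged without control spots and spots marked as outliers. Each level is the log2 signal less the 75th percentile of its array over non-control spots. A probe entered a test if all arrays of 1 or more of the groups compared had it well above background. Two-sided tests came from limma (3.58.1, under R 4.3.3) with Benjamini-Hochberg adjustment over all probes and a threshold of 0.05: stage over 6 arrays with age as a term, age over 4 blastocyst arrays, and their interaction. Ooplast groups have 1 array each and were not tested, and at least 2-fold was counted. The number of arrays limits the precision. The test of probe pairs was added after values were seen.

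The members, lists and tests were chosen with earlier results of these data known. Named genes are all 10 members and, per list, the 2 largest rises and 2 largest falls past the threshold. The CBX, PCGF, PHC and RYBP paralogs and the 3 printed promoters were added after values were seen. So were Yy1, Asxl2, Foxk1, Foxk2, Hcfc1 and Rbbp5, named for their other probes. Symbols of list genes came from RefSeq names; members were matched by the files' own gene names. Of the genes these rules name, 2 are not reported here.

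Replicate numbers are shared between the blastocyst groups; the correlation of their replicate deviations was 0.14 over 2 pairs, too few to show pairing. Alternatives were quantile normalization, a percentile over commonly detected probes, normexp (offset 50), the authors' values, other filters, 1 probe per gene, a replicate block, single arrays left out, slide 1 alone and each age alone. Each test was first run on simulated data with 200 changed probes, and recovered 2%, 54% and 96% of 2-, 4- and 8-fold stage changes. With so few changed probes the adjustment is stricter than in the stage data, where 73.8% of 20968 probes passed. The stage rates therefore do not tell how often changes of these sizes passed in the data.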

Additional observations from a re-analysis of the deposited data

How the results depend on the processing

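Of the 14 Polycomb probes tested for stage, 10 passed in the analysis reported. Under the alternatives 7 to 12 passed, other than with 1 probe per gene, where 6 of 9 did. The number tested differed with the filter: 7 of 11 passed where every array had to be above background, and 12 of 17 without a filter. Ezh2, the upstream Rnf2 probe, both Bmi1 probes, the downstream Ring1 probe, Cbx2 and Cbx7 passed under every alternative in which they were tested, in the same direction. The downstream Ring1 probe, Cbx7 and the upstream Bmi1 probe were not tested where every array had to be above background. For Ring1 and Cbx7 these calls use ooplast values that were not above background. Leaving out 1 array gave 8 to 10. With the replicate block 10 of the 14 passed, as did 14293 of all probes for stage, 0 for age and 160 for the interaction, and none of the calls for these 14 probes changed. The Suz12 downstream probe lost its call under 6 of 18 alternatives, the second Rnf2 probe under 4 of 17 and the Jarid2 probe that was higher under 1 (climacteric arrays alone, adjusted p = 0.053, limma), while the upstream Ring1 probe passed with the percentile of probes detected on all arrays (-0.71, adjusted p = 0.0415, limma).

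Changes of sign were limited to probes near 0 or dim in ooplasts. The upstream Suz12 probe (0.03) was at -0.030 with quantile normalization, -0.16 with probes detected on all arrays, -0.029 with the authors' values, -0.0095 with the replicate block and on slide 1 alone, -0.13 on climacteric arrays alone, and between -0.13 and 0.18 with 1 array left out. Eed (-0.16) was at 0.029 on climacteric arrays alone and between -0.38 and 0.11 with 1 array left out. Under normexp, Ash1l was at -0.15, Hoxc6 at -0.48 and Smoc1 at -0.36. Causes were not tested.

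Over all probes, the number passing for stage (15469) was 29232 without a filter, with 26.1% of them higher against 48.2%, and 9774 among probes above background on every array, as the filters change how many probes are tested. The interaction count (141) was 0 with quantile normalization and with the authors' values, 222 with normexp, 49 without a filter and 0 to 109 with 1 blastocyst array left out; it was 0 without either climacteric array or without young replicate 1. Ooplast Polycomb probes at least 2-fold apart (1) numbered 0 with probes detected on all arrays, normexp, the authors' values or 1 probe per gene, 2 without a filter, 3 at 1.5-fold and 0 at 4-fold. The count over all probes (2684) was 1608 with normexp, 6972 without a filter, 6347 at 1.5-fold and 639 at 4-fold. Of those 2684, 42.7% were higher in climacteric ooplasts, against 58.7% with probes detected on all arrays, 33.2% with normexp and 52% with quantile normalization.

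With 1 array each, the age of the ooplasts and the array itself cannot be told apart. Signal near background limits Cbx7 and Ring1 in ooplasts to bounds and leaves Ezh1 unmeasured.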
